A study of Mus musculus with 8 samples.

Results

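The peroxisomal ABCD transporters and beta-oxidation genes are 8 genes: Abcd2, Abcd3, Abcd4, Acox3, Hsd17b4, Scp2, Acaa1a and Pex5. They were 8 of 23983 genes measured with an expression array in mouse prefrontal cortex. Abcd2 was picked for its measured fall in signal, so its fall is a description with no test. The other 7 were chosen by name, for their role in the same pathway, with earlier results of these data known. Each was found by its exact symbol and had 1 transcript cluster, the set of probes along a gene that the array summarises as 1 value.

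The study compared 4 wild-type mice with 4 mice labelled Mll1 Ko. All 8 were 12-week-old males that had lived alone for a week. The tissue was prefrontal cortex taken at the cingulate cortex, with 1 array per mouse. The titles of all 8 samples carry the word basal, which they do not explain. Mll1, now named Kmt2a, is a methyltransferase for lysine 4 of histone H3, and the series title calls it neuronal. The labels gave neither the allele, the strain nor any Cre driver, so the cells that lost the gene are not known from them. The design text gives the number of mice for each genotype, and each array was read as 1 mouse.

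Peroxisomes shorten very long chain and branched fatty acids that mitochondria cannot start on. ABCD transporters work as pairs in the membrane: Abcd2 carries very long chain acyl-CoA into the peroxisome, Abcd3 carries branched and dicarboxylic acyl-CoA, and Abcd4 sits on lysosomes and serves the handling of vitamin B12. Inside, acyl-CoA oxidases, the bifunctional protein Hsd17b4 and the thiolases Acaa1a and Scp2 carry out the steps of each cycle, and Pex5 is the receptor that brings most of these enzymes in.

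Signals were the authors' log2 values after RMA, a background correction, quantile normalization and summary of probes, so 1 unit is a doubling of signal. Differences are Mll1 Ko minus wild-type from limma over all 23983 genes, with Benjamini-Hochberg adjustment and a threshold of 0.05. Errors of levels are SD and errors of differences are SE, with n = 4 and 4 throughout. Over all genes, 1236 were higher and 1364 lower in Mll1 Ko, so 47.5% of calls were higher. That split moved with scaling, to 64.4% higher after quantile normalization of the deposited values, 63.1% after cyclic loess and 85.5% after centring each array. The targeted gene Kmt2a was higher, at 10.06 ± 0.09 in wild-type and 10.35 ± 0.06 in Mll1 Ko (limma, adjusted p = 0.0142, and 0.0601 without wild-type replicates 1 and 4). The labels do not say which part of it was deleted, so this signal checks nothing about the labels, and every direction rests on them. On the first principal component wild-type replicate 1 lay at -20.33 against -8.19 to -7.52 for the other wild-type arrays, and wild-type replicate 4 lay apart on the second at -19.24. Named calls are therefore also given without this pair. All 8 members lay above the lower quartile of every array, which was 6.89 to 6.94 in wild-type and 6.80 to 6.83 in Mll1 Ko. Array medians were 8.04 to 8.08 in wild-type and 7.99 to 8 in Mll1 Ko. Both measures were thus lower on every Mll1 Ko array, and the cause was not tested.

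Abcd2 (transcript cluster 10431697) stood at 9.98, 10.09, 10.23 and 10.19 on wild-type arrays 1 to 4. On Mll1 Ko arrays 1 to 4 it stood at 9.52, 9.53, 9.56 and 9.53. The lowest wild-type array was thus well above the highest Mll1 Ko array, and the 4 Mll1 Ko values lay within a few hundredths of each other. The means were 10.12 ± 0.11 and 9.54 ± 0.02, a difference of -0.59 ± 0.06 log2, or 1.5-fold higher in wild-type. The authors' deposited table gave 1.52-fold in the same direction. The difference was -0.625 without wild-type replicates 1 and 4, and from -0.645 to -0.526 over all settings tried. In bulk tissue, fewer cells that express a gene and less RNA per cell cannot be told apart.

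**Figure D1:**
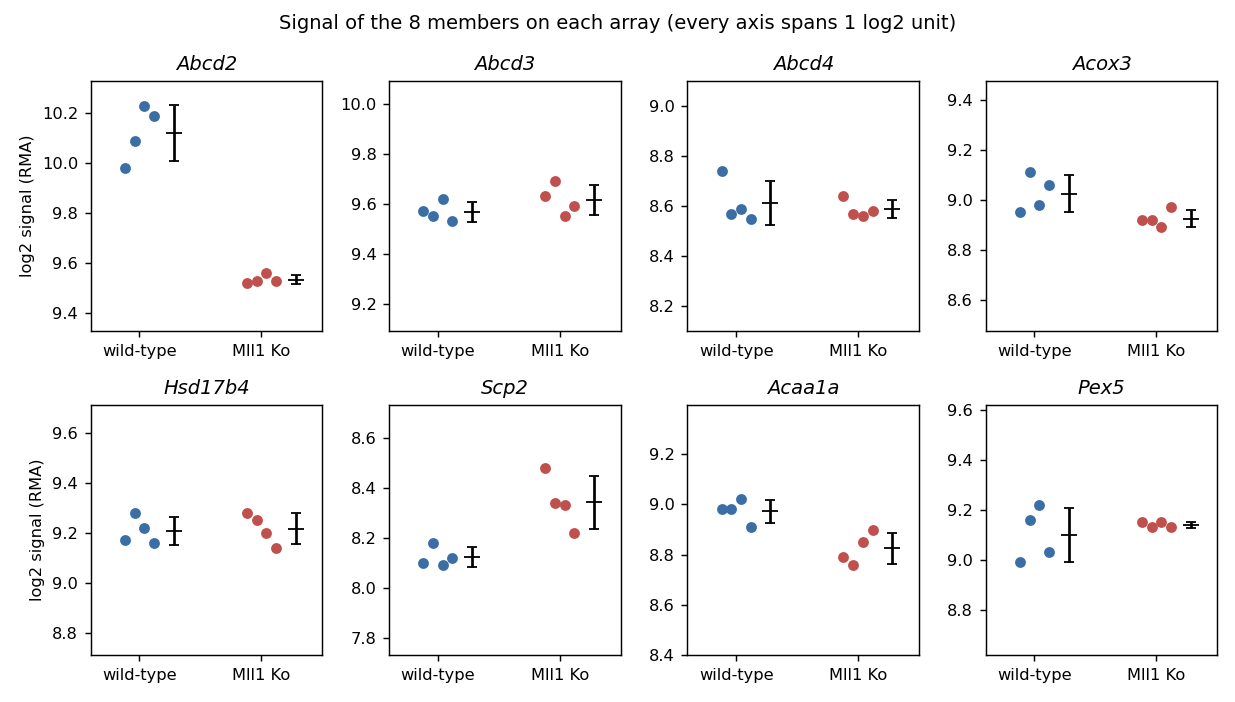
Log2 RMA signal of each member on the 4 wild-type arrays (blue) and the 4 Mll1 Ko arrays (red), with the mean and SD of each group in black. Every vertical axis spans 1 log2 unit, so panels can be compared for spread; Abcd2 is the member with the widest gap between groups, from 10.12 to 9.54.

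The paralogs Abcd3 and Abcd4 did not show this shift. Abcd3 (10501832), the most studied peroxisomal membrane protein of the family, was at 9.57, 9.55, 9.62 and 9.53 in wild-type and 9.63, 9.69, 9.55 and 9.59 in Mll1 Ko, and the groups overlapped. Its difference was 0.05 ± 0.05 log2 (limma, adjusted p = 0.504, 95% interval -0.06 to 0.15), and its sign turned to -0.0059 after quantile normalization. Abcd4 (10401488), the lysosomal member, was at 8.74, 8.57, 8.59 and 8.55 in wild-type and 8.64, 8.57, 8.56 and 8.58 in Mll1 Ko. Again the groups overlapped, with wild-type replicate 1 highest of all. Its difference was -0.03 ± 0.05 (adjusted p = 0.763, interval -0.14 to 0.09), and its sign turned to 0.036 after centring each array. Changes as large as that of Abcd2 lie outside both intervals.

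The log2 signal of Abcd2 less that of Abcd3 on the same array is free of any shift common to an array. It was 0.41, 0.54, 0.61 and 0.66 in wild-type and -0.11, -0.16, 0.01 and -0.06 in Mll1 Ko. Its size says nothing of abundance, since the probes differ, but its mean changed by -0.64 log2. Against Abcd4 the same measure changed by -0.56. Abcd2 therefore changed unequally to Abcd3 and Abcd4 on these arrays, as a description, since Abcd2 was picked for its fall.

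**Figure D2:**
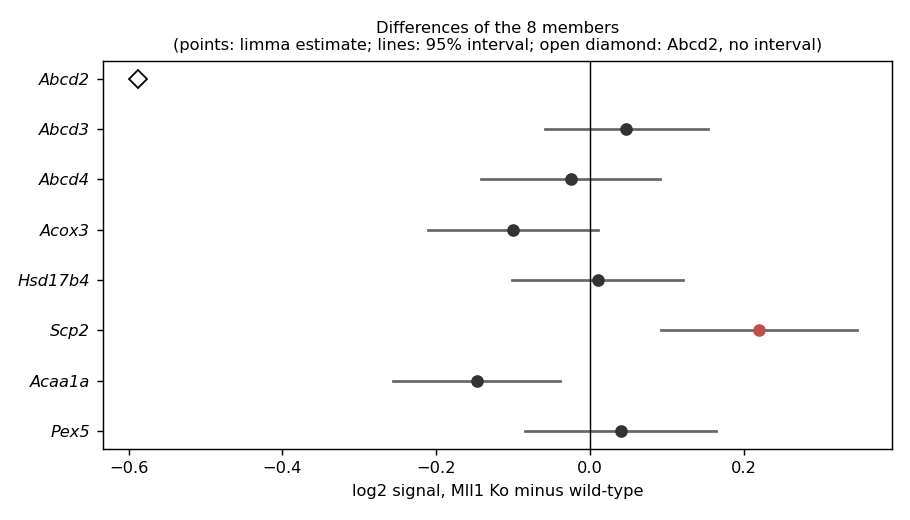
Difference in log2 signal, Mll1 Ko minus wild-type, for the 8 members, with 95% intervals from limma. Scp2, in red, passed an adjusted p of 0.05. Abcd2 is an open diamond with no interval because it was picked for its fall; the interval of Scp2 (0.09 to 0.35) and that of Acaa1a (-0.26 to -0.04) lie off 0, and the others include 0.

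Of the 7 members other than Abcd2, 1 was higher (Scp2) and 0 were lower at the threshold. Among all genes 5.15% were higher and 5.69% lower, 10.8% in either direction, so 1 call among 7 is near the background. At an unadjusted p under 0.05 limma gave 1 lower member, Acaa1a, against 20.3% of all genes, and the unmoderated test also gave 0 lower at the threshold. The values of 2 of the 7, Scp2 and Acaa1a, did not overlap between the groups, against 19.5% of all genes. The 7 differences had a median of 0.01 (-0.0183 after quantile normalization), and that of all genes was -0.0325.

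Scp2 (10514956) encodes both a thiolase for branched chain substrates and a small carrier of sterols and acyl-CoA, made from the same gene. It was at 8.10, 8.18, 8.09 and 8.12 in wild-type and 8.48, 8.34, 8.33 and 8.22 in Mll1 Ko. Every Mll1 Ko array was above every wild-type array, and Mll1 Ko replicate 1 was the highest. The means were 8.12 ± 0.04 and 8.34 ± 0.11, a rise of 0.22 ± 0.06 log2 or 1.16-fold (limma, adjusted p = 0.0365, interval 0.09 to 0.35). The call held after quantile normalization (difference 0.26, adjusted p = 0.0292) but ended without any 1 of 6 arrays, with adjusted p from 0.0538 without wild-type replicate 2 to 0.0858 without Mll1 Ko replicate 1. The other 4 of those arrays were wild-type replicates 1 (0.079) and 3 (0.0637) and Mll1 Ko replicates 2 (0.0821) and 3 (0.0851). Without wild-type replicates 1 and 4 together the difference was 0.207 (adjusted p = 0.133), and the authors' deposited table gave Scp2 an FDR p-value of 0.0842. The cluster of a pseudogene, Scp2-ps1, was at 8.25 to 8.37 in wild-type and 8.21 to 8.39 in Mll1 Ko. Whether the clusters share hybridising RNA was not tested.

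Acaa1a (10590137), the thiolase that closes each turn for straight chains, went the other way. It was at 8.98, 8.98, 9.02 and 8.91 in wild-type and 8.79, 8.76, 8.85 and 8.90 in Mll1 Ko. The groups did not overlap, though wild-type replicate 4 and Mll1 Ko replicate 4 were nearly level. The difference of -0.15 ± 0.05 did not pass (adjusted p = 0.0729, interval -0.26 to -0.04), and passed with array weights (adjusted p = 0.0328). Without wild-type replicates 1 and 4 it was -0.175 (adjusted p = 0.105).

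The promoter windows of Scp2 and Acaa1a are shown because these were the members, beside Abcd2, whose values did not overlap between groups. Each runs from 250 bases before to 50 after a RefSeq start, 5′ to 3′ on the strand of the gene, and capitals mark CpG, the dinucleotide that the CXXC domain of MLL1 binds when it is unmethylated. The Scp2 window is chr4:108118498-108118797 on the minus strand and the Acaa1a window chr9:119341044-119341343 on the plus strand, both in GRCm38.p6.
Scp2: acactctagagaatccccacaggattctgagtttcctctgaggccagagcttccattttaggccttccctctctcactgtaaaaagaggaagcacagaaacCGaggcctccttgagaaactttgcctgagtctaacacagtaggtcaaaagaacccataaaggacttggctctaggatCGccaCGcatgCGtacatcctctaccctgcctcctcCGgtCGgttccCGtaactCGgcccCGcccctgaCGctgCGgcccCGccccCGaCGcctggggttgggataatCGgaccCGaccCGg
Acaa1a: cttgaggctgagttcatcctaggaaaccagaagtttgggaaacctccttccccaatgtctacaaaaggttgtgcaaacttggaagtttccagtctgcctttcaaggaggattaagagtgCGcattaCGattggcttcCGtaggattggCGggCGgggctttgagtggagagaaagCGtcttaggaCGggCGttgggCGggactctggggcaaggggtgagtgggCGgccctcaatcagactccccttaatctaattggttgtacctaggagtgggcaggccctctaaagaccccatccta

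The Scp2 window held 17 CpG and the Acaa1a window 10, and the median of 32851 such windows was 7. At least 17 were found in 31.4% of all windows and at least 10 in 43.5%. Windows of 5 of the 8 members were searched, 8 windows in all, and Hsd17b4 was left out of the search. Both Abcd3 windows were denser, with 42 and 45 CpG, a density that 3.03% and 1.93% of all windows reached. Acox3 had 22, and the 3 windows of Pex5 had 9, 22 and 39. The nuclear receptor core motif AGGTCA, searched on both strands, lay in the Scp2 window alone among the 8, on the forward strand from base 142 counted from the 5′ end, and in 16.3% of all windows. None of these 8 windows held a direct repeat of it spaced by 1 base, the form bound by PPAR with RXR. Such a repeat lay in 0.0396% of all windows. The GC box GGGCGG, on either strand, lay in 5 of the 8 windows and in 35.7% of all. These are matches of letters in short windows and no evidence of binding. Abcd2, Abcd4 and Hsd17b4 are named only.

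The remaining enzymes did not pass. Acox3 (10521391), an oxidase of branched chain substrates, was at 8.95, 9.11, 8.98 and 9.06 in wild-type and 8.92, 8.92, 8.89 and 8.97 in Mll1 Ko. The groups overlapped only through Mll1 Ko replicate 4, which lay above wild-type replicate 1. Its difference was -0.10 ± 0.05 (limma, adjusted p = 0.185, interval -0.21 to 0.01). Hsd17b4 (10455656), which hydrates and then dehydrogenates the substrate, was at 9.17, 9.28, 9.22 and 9.16 in wild-type and 9.28, 9.25, 9.20 and 9.14 in Mll1 Ko. Both groups covered nearly the same range, and the difference was 0.01 ± 0.05 (adjusted p = 0.906, interval -0.10 to 0.12), with a sign that turned under several settings. Pex5 (10547701), the import receptor, was at 8.99, 9.16, 9.22 and 9.03 in wild-type and 9.15, 9.13, 9.15 and 9.13 in Mll1 Ko. Its Mll1 Ko values lay inside the wild-type range, and the difference was 0.04 ± 0.06 (adjusted p = 0.638, interval -0.08 to 0.16).

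Other genes of the pathway were taken from 7 lists of 145 tested genes, of which 14 were higher and 2 lower at the threshold. At an unadjusted p under 0.05, to be read beside the list counts at that threshold, 12.7% of all genes were higher and 20.3% lower. Genes as bright as the members, with means of 8.23 to 9.83, were higher in 7.20% and lower in 2.74% of 7783 cases at the adjusted threshold. The list genes spanned a wider range, 6.12 to 12.38, and 7 of the 14 higher ones lay outside that of the members. After quantile normalization the shares of genes as bright as the members were 3.67% and 1.89%, and the lists then had 5 higher and 2 lower genes. Without wild-type replicate 1 the lists had 3 higher and 1 lower. Without Mll1 Ko replicate 2 or 3 they had 1 higher and 0 lower, and without wild-type replicates 1 and 4 they had 2 and 1. With any other single array left out the lists had 6 to 13 higher. Calls over all genes fell too, from 1236 higher and 1364 lower to 586 and 478 without wild-type replicate 1. They were 505 and 362 without Mll1 Ko replicate 2 and 398 and 313 without Mll1 Ko replicate 3. Without wild-type replicates 1 and 4 they were 424 and 395.

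Among 21 other genes of peroxisomal beta-oxidation 2 were higher and 0 lower (limma; 5 and 0 at an unadjusted p under 0.05), with a median of 0.03. Eci2, an isomerase needed for unsaturated fatty acids, was at 8.28, 8.60, 8.42 and 8.38 in wild-type and 8.61, 8.77, 8.81 and 8.87 in Mll1 Ko. The groups were separated narrowly, between wild-type replicate 2 and Mll1 Ko replicate 1. It rose by 0.35 ± 0.07 log2 (adjusted p = 0.0203) and kept its call after quantile normalization (adjusted p = 0.0281). Decr2, a reductase that also serves unsaturated fatty acids, rose by 0.21 ± 0.05 (adjusted p = 0.0334), a call that ended after quantile normalization (adjusted p = 0.126). Leaving out Mll1 Ko replicate 2 (adjusted p = 0.0524) or 3 (0.0614) ended the call of Eci2, as did leaving out wild-type replicate 1 (0.052). That of Decr2 ended without any 1 of 6 arrays, all but wild-type replicates 3 and 4, with adjusted p up to 0.0785. Neither passed without wild-type replicates 1 and 4 together (0.111 for Eci2 and 0.139 for Decr2).

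Among 15 other peroxins, the proteins that build peroxisomes, 3 were higher and 0 lower (4 and 0 at an unadjusted p under 0.05), with a median of 0.068. Pex2 and Pex10 are RING proteins of the ubiquitin ligase that recycles Pex5 from the membrane. Pex2 was at 8.13, 8.14, 8.08 and 8.04 in wild-type and 8.24, 8.41, 8.32 and 8.20 in Mll1 Ko, a rise of 0.20 ± 0.06 (limma, adjusted p = 0.0456). Pex10 was at 8.54, 8.68, 8.64 and 8.52 in wild-type and 8.81, 8.75, 8.77 and 8.83 in Mll1 Ko, a rise of 0.20 ± 0.05 (adjusted p = 0.0362). In both genes every Mll1 Ko array was above every wild-type array, and both kept their calls after quantile normalization (adjusted p = 0.0301 and 0.0492). Pex3, which places membrane proteins, rose by 0.19 ± 0.05 (adjusted p = 0.0343) but not after quantile normalization (adjusted p = 0.109). These calls ended on leaving out nearly any array: any 1 of 7 for Pex2 (all but Mll1 Ko replicate 4, adjusted p up to 0.119), 6 for Pex10 (all but wild-type replicates 2 and 3, up to 0.0831) and 7 for Pex3 (all but wild-type replicate 4, up to 0.0881). Without wild-type replicates 1 and 4 together the adjusted p was 0.141 for Pex2, 0.145 for Pex10 and 0.0864 for Pex3.

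Of 27 other peroxisomal enzymes and membrane proteins 1 was higher and 0 lower (2 and 2 at an unadjusted p under 0.05), with a median of 0.018. Far2, which makes fatty alcohols from acyl-CoA, rose by 0.26 ± 0.06 (limma, adjusted p = 0.0247), but not after quantile normalization (adjusted p = 0.0741) or without any 1 of 5 arrays, wild-type replicates 1 and 2 and Mll1 Ko replicates 1, 2 and 3 (adjusted p up to 0.0632), or without wild-type replicates 1 and 4 together (0.121). Paox, a polyamine oxidase, was at -0.21 ± 0.07 and did not pass (adjusted p = 0.0603).

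Mitochondrial beta-oxidation shortens medium and long chains. Of the 18 genes listed for it, 6 were higher and 0 lower (8 and 1 at an unadjusted p under 0.05). The median of the 18 was 0.096 log2. The 6 were Acaa2, Acadl, Acadm, Cpt1c, Echs1 and Etfb. The 4 with the lowest p were Echs1, a hydratase (0.21 ± 0.05, limma, adjusted p = 0.0191), the acyl-CoA dehydrogenase gene Acadl (0.21 ± 0.05, adjusted p = 0.0335), the thiolase gene Acaa2 (0.21 ± 0.05, adjusted p = 0.0337) and the dehydrogenase gene Acadm (0.18 ± 0.05, adjusted p = 0.0459). After quantile normalization Acadl alone passed (adjusted p = 0.0334), with 1 of 18 called while the list median was 0.118. Without wild-type replicate 1 the list had 1 call, Echs1, and without wild-type replicates 1 and 4 it had 0. Echs1 lost its call without Mll1 Ko replicate 2 (adjusted p = 0.058) or 3 (0.0572). Without 1 of these arrays Acadl (up to 0.0891), Acaa2 (up to 0.0903) and Acadm (up to 0.0882) lost theirs too, and each also without wild-type replicate 1 or Mll1 Ko replicate 4. Acadl and Acadm lost theirs without wild-type replicate 2 as well, Acadl without wild-type replicate 3 and Acadm without Mll1 Ko replicate 1 (0.104).

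Of 20 genes of fatty acid activation, elongation and desaturation 0 passed in either direction (limma; 3 higher and 0 lower at an unadjusted p under 0.05). The 2 with the lowest p were Slc27a1, a fatty acid transport protein (0.15 ± 0.05, adjusted p = 0.0779), and Acsl4, a ligase that favours arachidonic acid (0.16 ± 0.05, adjusted p = 0.0795), and their list median turned from 0.033 to -0.0288 after quantile normalization. The list of 14 lipid-sensing transcription regulators also held the thyroid hormone receptor genes Thra and Thrb, which its name does not describe. Thra rose by 0.22 ± 0.05 (limma, adjusted p = 0.023), but not after quantile normalization (adjusted p = 0.156). Nor did Thra pass without Mll1 Ko replicate 2 (0.0646) or 3 (0.0535) or wild-type replicates 1 and 4 together (0.0742). It was the 1 higher gene of the list, with 1 lower, and 2 were higher and 2 lower at an unadjusted p under 0.05. The median of the 14 turned from 0.038 to -0.0108 after quantile normalization. Pparg, a nuclear receptor of fatty acids, stood at 8.89, 8.90, 8.94 and 8.80 in wild-type and 8.74, 8.64, 8.59 and 8.69 in Mll1 Ko. It fell by 0.22 ± 0.05 (adjusted p = 0.0269), also after quantile normalization (adjusted p = 0.0293) and without wild-type replicates 1 and 4 together (0.0466). It did not pass after centring each array (-0.156, adjusted p = 0.0674), with the unmoderated test (0.055) or with the replicate number as a block. Nor did it pass without any 1 of 5 arrays, wild-type replicates 1, 2 and 3 and Mll1 Ko replicates 2 and 3 (adjusted p up to 0.0827).

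Among 30 ABC transporters outside the D subfamily 1 was higher and 1 lower (3 and 5 at an unadjusted p under 0.05), with a median of 0.013 (-0.0080 after quantile normalization). Abca8b, of the A subfamily, was at 8.05, 8.15, 8.21 and 8.18 in wild-type and 8.54, 8.48, 8.41 and 8.48 in Mll1 Ko. It rose by 0.33 ± 0.05 (limma, adjusted p = 0.00502) and passed under every setting tried, with an adjusted p of 0.027 without wild-type replicates 1 and 4. Abcc8, the sulfonylurea receptor subunit of a potassium channel, fell by 0.19 ± 0.04 (limma, adjusted p = 0.0276). It did not pass after centring each array (adjusted p = 0.0911) or with the replicate number as a block. Nor did it pass without wild-type replicate 2 or Mll1 Ko replicate 2, 3 or 4 (up to 0.0781) or wild-type replicates 1 and 4 together (0.057).

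**Figure D3:**
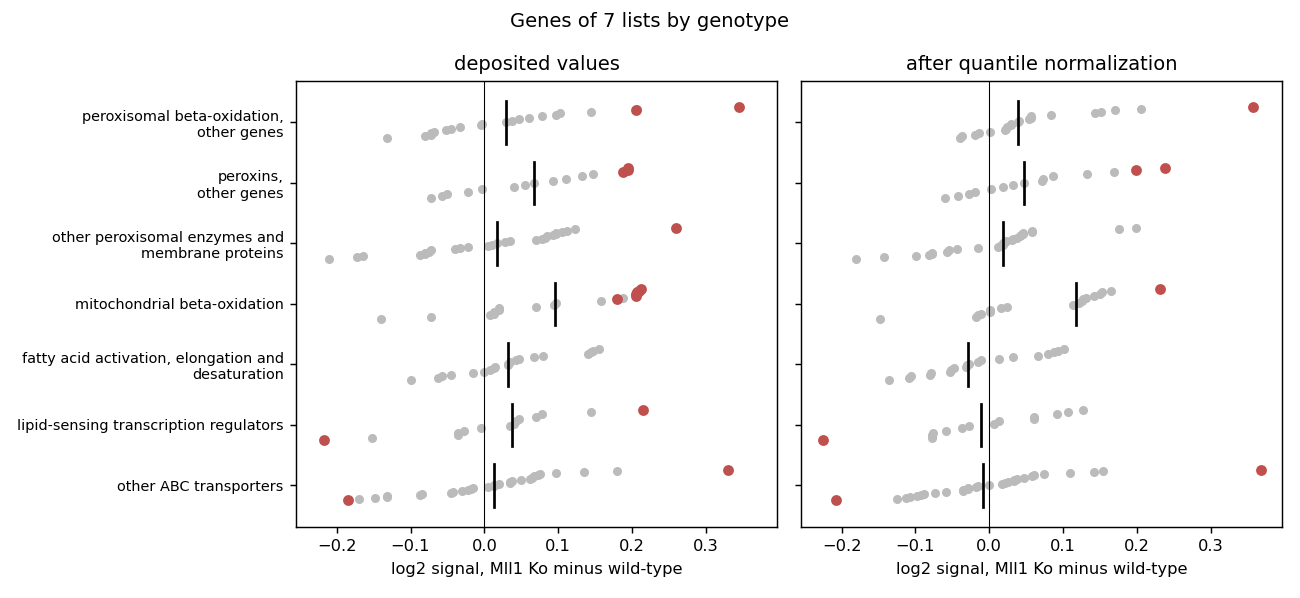
Difference in log2 signal, Mll1 Ko minus wild-type, for each tested gene of the 7 lists in the deposited values (left) and after quantile normalization (right). Red points passed an adjusted p of 0.05 in limma, grey points did not, and black bars are list medians; 14 genes were higher on the left and 5 on the right.

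The genes whose values over the 8 arrays were most like those of Abcd2 were found by the root mean square difference of log2 values, each gene centred on its own mean. The nearest 5 were Dkk3, a secreted protein of the Dickkopf family (0.080), the semaphorin gene Sema7a (0.082), the transcription factor gene Foxp2 (0.086), the retinaldehyde dehydrogenase gene Aldh1a1 (0.086) and Lrrc8b, a subunit of volume-regulated anion channels (0.086). Since the likeness includes the step between genotypes, all 5 were lower in Mll1 Ko by construction. Wild-type replicate 1 was the lowest wild-type array in each, as it was in Abcd2. The choice of genes over the same 8 arrays favours this likeness too, so it is no separate result. Dkk3 was at 10.73, 10.85, 10.84 and 10.86 in wild-type and 10.42, 10.26, 10.35 and 10.24 in Mll1 Ko. Among the other members the value was lowest for Acaa1a, at 0.235, and highest for Scp2, at 0.417.

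**Figure D4:**
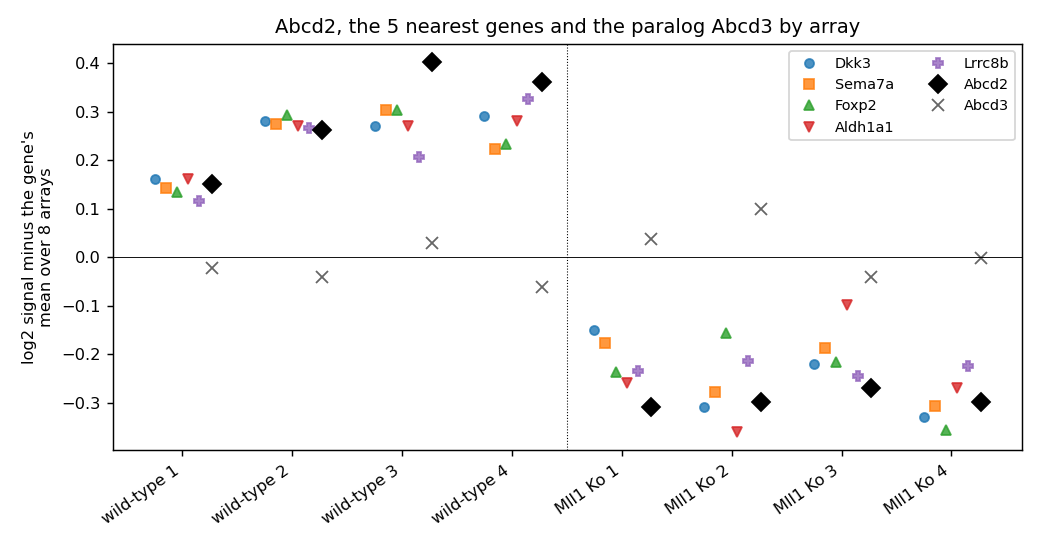
Log2 signal of Abcd2 (black diamonds), its 5 nearest genes (coloured) and Abcd3 (crosses), each less its own mean over the 8 arrays, for every array. Abcd2 and the 5 genes lie above 0 on all wild-type arrays and below 0 on all Mll1 Ko arrays, while Abcd3 stays near 0.

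The tissue was checked with 55 markers of 9 cell types, of which 1 was higher and 3 lower at the threshold. Gad1 of GABAergic and Adora2a of striatal neurons were among the lower ones. Of all genes 5.15% were higher and 5.69% lower at that threshold, so the marker calls do not stand out from the background. The glutamatergic neuron marker Slc17a7 was at 12.68 in wild-type and 12.65 in Mll1 Ko. The 7 genes listed as glutamatergic neuron markers included Rbfox3 and Snap25, which are not particular to these neurons. Their mean level was 11.73 to 11.83 in wild-type mice and 11.58 to 11.68 in Mll1 Ko mice, without overlap. Of the 7, 0 were higher and 1 lower at the threshold. Without the marker that passed, the other 6 were at 11.94 to 12.05 and 11.89 to 11.99, which overlapped. The 4 genes listed as oligodendrocyte precursor markers included Olig2 and Sox10, which are not particular to precursors. Their mean level was 9.02 to 9.08 in wild-type and 9.09 to 9.14 in Mll1 Ko, with Pdgfra higher. Without Pdgfra the other 3 overlapped, at 8.85 to 8.92 and 8.87 to 8.93, and Sox10 went the other way, from 9.18 to 9.28 in wild-type and 9.05 to 9.13 in Mll1 Ko (limma, adjusted p = 0.0984). The ranges overlapped for astrocytes (10.81 to 10.85 and 10.82 to 10.91) and oligodendrocytes (11.10 to 11.22 and 10.97 to 11.23). They also overlapped for GABAergic neurons (10.16 to 10.30 and 10.15 to 10.25), microglia (8.77 to 8.90 and 8.87 to 8.96) and endothelial and mural cells (8.75 to 8.83 and 8.59 to 8.83). The choroid plexus (7.53 to 8.24 and 7.47 to 7.72) and striatal neuron lists (10.01 to 10.19 and 9.91 to 10.09) overlapped too. Ttr, a choroid plexus marker, was at 9.35 in wild-type replicate 1 against 7.16 to 7.21 in the other wild-type mice and 6.94 to 7.72 in Mll1 Ko. Wild-type replicate 1 was also the lowest wild-type array for Abcd2, whose difference was -0.635 without it. The part of cell composition in the Abcd2 difference was not tested.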

How the data were processed

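Total RNA from the prefrontal cortex of 4 wild-type and 4 Mll1 Ko mice was measured on expression arrays, 1 per mouse. The deposited log2 signals covered 35556 transcript clusters. Affymetrix Expression Console, RMA and Transcriptome Analysis Console 3.0 are named, per the submitters' processing notes; build and array model are not given in the sources used here. The authors' table of 28944 clusters held log2 means and a signed linear fold (read as a score, positive where wild-type was higher), and, per the file headers, p-values before and after FDR correction. It supplied the gene symbols. Clusters with 1 gene (25400) were used, the brightest per gene, which gave 23983 genes.

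Differences were fitted with limma 3.58.1 (lmFit, eBayes) under R 4.3.3 on genotype alone, with no filter and Benjamini-Hochberg adjustment. The procedure was tested on simulated data. The members and lists were chosen with earlier results of these data known. Amacr and Pex16 shared a cluster with another gene and, with Acsl3, were not tested. Named genes were the members, Kmt2a, per list up to 4 passing genes with the lowest p or otherwise 2, and the 5 genes nearest to Abcd2, with predicted genes, microRNAs, snoRNAs and RIKEN clones not named. Other settings were quantile normalization, cyclic loess with 3 iterations, array centring, exclusion of dim genes, array weights, trended and robust eBayes, an unmoderated test, the mean of all clusters, the replicate number as a block, and arrays left out. Marker lists without the markers that passed were added after seeing the data. Arrays give no count depth, so their number limits the precision. Promoter windows came from RefSeq (GRCm38.p6).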

Additional observations from a re-analysis of the deposited data

Results flagged for a closer look

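Paox stood at 8.60 in wild-type replicate 1 and at 8.43 to 8.45 in the other 3 wild-type mice, a gap of 0.882 of the group's range, above Dixon's critical value at the 95% level for 4 samples. It was the 1 group so marked among 52 groups tested, where chance marks about 1 in 20.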

How the results depend on the processing

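Scp2 was the 1 member other than Abcd2 called higher, and that count was 0 with the unmoderated test, the replicate block and without wild-type replicates 1 and 4, and 0 to 1 with 1 array left out. The count of members called lower was 0, and 1 with array weights (Acaa1a). In the 7 lists 14 genes were higher and 2 lower. With quantile normalization and with cyclic loess 5 were higher. Array centring gave 27 higher and 0 lower, array weights 5 lower, the unmoderated test 6 and 1, the replicate block 5 and 0, and the fit without wild-type replicates 1 and 4 gave 2 and 1. With 1 array left out the lists had 1 to 13 higher and 0 to 4 lower. The same fits gave 398 to 1506 higher and 313 to 1755 lower among all genes. Over all genes, against 1236 higher and 1364 lower, quantile normalization gave 686 and 379, cyclic loess 746 and 437, centring 2845 and 482, the unmoderated test 552 and 384, the replicate block 799 and 759, and array weights 1695 and 2469.

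Deviations of same-numbered arrays from their group means correlated at -0.0084 to 0.0236, so these arrays shared no broad deviation over the genes. The labels do not say how the numbers were given, and this measure cannot tell whether the mice were paired. The sign of members with differences near 0 turned. Abcd3 was at -0.0059 after quantile normalization and -0.0041 after cyclic loess. Abcd4 was at 0.036 after centring, between -0.0458 and 0.018 with 1 array left out (0.018 without wild-type replicate 1) and 0.0075 without wild-type replicates 1 and 4. Pex5 was at -0.0010 with array weights and -0.050 without wild-type replicates 1 and 4. Hsd17b4 was at -0.024 after quantile normalization, -0.026 after cyclic loess, -0.015 with array weights and -0.033 without wild-type replicates 1 and 4. It was at -0.0025, -0.0058, -0.011 and -0.00083 without wild-type replicate 1 or 4 or Mll1 Ko replicate 1 or 2. The cause was not tested.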
